A study of Mus musculus with 8 samples.

Results

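Replication-dependent histone genes were followed in the pancreatic lymph node of mice that lack Deaf1, a DNA-binding transcription factor. The members were all array probes, other than control spots, whose gene name begins with Hist1, Hist2, Hist3 or Hist4. They numbered 47 of the 41174 probes on the array and stood for 36 genes, of which 25 lie in cluster Hist1, 7 in Hist2, 3 in Hist3 and 1 in Hist4. Of the 47 probes, 39, for 31 genes, passed the filter on dim signals, which kept 27464 probes in all. The 39 were 6 probes for H1, 14 for H2A, 9 for H2B, 3 for H3 and 7 for H4.

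Each of the 8 arrays carried pancreatic lymph node RNA of Deaf1 knockout mice in the red dye Cy5. The labels call the arrays biological replicates and name no pool for the knockout, but do not give the number of knockout mice per array. The green dye Cy3 marked RNA pooled from age-matched wild-type littermates. All animals were BALB/c. There were 2 arrays at 4 weeks, with 2 wild-type mice in the pool, and 3 arrays each at 12 and 30 weeks, with 3 mice in the pool. Values below are log2 ratios of knockout over pool after loess normalisation within each array, unless another scaling is named.

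Replication-dependent histone genes lie in dense clusters, mostly lack introns and are transcribed mainly while DNA is copied. H2A, H2B, H3 and H4 form the nucleosome core, around which DNA is wrapped, and H1 binds the linker DNA between nucleosomes. Their messenger RNAs end in a conserved stem-loop in place of a poly(A) tail. The stem-loop binding protein Slbp reads this end, and the factor Npat switches the clusters on at the entry to S phase. The RNA here was amplified with a low-input linear amplification kit, per the labels, a method that usually primes on poly(A). How far the signals report the stem-loop form of each RNA was not tested.

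No array had the dyes swapped and no wild-type mouse was set against a pool, so dye bias and the spread between control mice are not in any test. Within an age the green channels had correlations of 0.998 or 0.999 for the 12- and 30-week arrays, and 0.983 for the 4-week pair. Whether arrays of an age share a single pool is not stated. Both 4-week arrays lay on slide 1 and were read on a scanner of their own and an earlier version of the scanner software. Slide 2 held all 12-week arrays and replicate 1 of 30 weeks, and slide 3 held the other two 30-week arrays. A difference between 4 weeks and a later age therefore cannot be told apart from slide, scanner and software. Probes well above background made up 46.8% to 71.4% of the knockout channel and 37.2% to 62.6% of the pool channel, and no probe was saturated. Deaf1 itself, on probe A_52_P456977, gave ratios from -0.22 to 0.35, and on probe A_51_P275658 gave 3.11 on replicate 2 of 30 weeks against -0.74 to 0.18 elsewhere. Whether either Deaf1 probe lies in the deleted part is not given in the sources used here, so they do not check the labels. Replicate 2 of 12 weeks stood apart at Xist (5.32 on probe A_51_P145453, against -0.40 to 0.75 elsewhere) and at Ddx3y (-3.89 on probe A_51_P402994). Replicate 2 of 30 weeks stood apart at pancreatic acinar markers, with a median of 4.15 over 12 genes against -4.37 and -4.91 on replicates 1 and 3.

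The probes are 60 bases long, and the genes of a histone type are so alike that several probes carry nearly the same letters. The following are shown because the results for H4, H2A and H2B come in part from groups of probes that may not tell their genes apart. Whether they do was not tested. In the first set, capitals mark the stretch shared with a partner probe, 50 bases between Hist1h4d (mm8, chr13:23589261-23589320, listed on the plus strand) and Hist1h4f (chr13:23558845-23558904, minus), and 29 bases between Hist2h4 (chr3:96348435-96348494, minus) and Hist1h4d.
Hist1h4d: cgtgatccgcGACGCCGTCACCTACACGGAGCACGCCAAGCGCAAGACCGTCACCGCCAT
Hist1h4f: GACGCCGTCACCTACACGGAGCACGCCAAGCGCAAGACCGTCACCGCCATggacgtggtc
Hist2h4: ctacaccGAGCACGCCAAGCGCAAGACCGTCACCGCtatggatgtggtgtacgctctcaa

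For H2A, the probes of Hist1h2ak (chr13:21761233-21761292, minus) and Hist1h2af (chr13:23541396-23541455, plus) share 40 bases, in capitals, and that of Hist1h2ai (chr13:21794624-21794683, minus) differs from Hist1h2ak at 5 bases, in capitals on its own line. A pair of probes both named Hist2h2ac shares 51 bases, in capitals, although the file places them 25283 bases apart on opposite strands (chr3:96305950-96306006, minus, and chr3:96331233-96331292, plus).
Hist1h2ak: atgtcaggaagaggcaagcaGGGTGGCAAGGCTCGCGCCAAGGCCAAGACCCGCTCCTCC
Hist1h2af: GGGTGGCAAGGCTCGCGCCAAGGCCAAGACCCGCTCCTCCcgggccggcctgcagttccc
Hist1h2ai: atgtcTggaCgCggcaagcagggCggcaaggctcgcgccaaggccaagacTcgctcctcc
Hist2h2ac, first probe: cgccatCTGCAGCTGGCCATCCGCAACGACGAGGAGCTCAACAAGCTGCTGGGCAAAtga
Hist2h2ac, second probe: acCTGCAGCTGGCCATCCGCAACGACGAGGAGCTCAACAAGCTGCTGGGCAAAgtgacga

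For H2B, the probes of Hist1h2bk (chr13:22043524-22043583, plus) and Hist1h2bm (chr13:21729735-21729794, plus) differ at 2 bases, and Hist3h2bb (chr11:58770390-58770449, minus) differs from Hist1h2bk at 3 within their overlap, with the differing bases in capitals.
Hist1h2bk: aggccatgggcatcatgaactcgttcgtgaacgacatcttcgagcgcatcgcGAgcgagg
Hist1h2bm: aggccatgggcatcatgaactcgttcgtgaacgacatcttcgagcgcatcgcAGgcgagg
Hist3h2bb: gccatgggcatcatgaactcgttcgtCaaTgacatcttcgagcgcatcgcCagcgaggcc

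Of the 47 probes, 13 shared at least 20 bases in a row with the probe of another member gene. The letters of the stem-loop stood whole in 1 of the 47 probes, that of Hist1h3a (chr13:23769352-23769411, minus), and in no other of the 41174 probes. The window around them, with the stem-loop in capitals, is shown because it is the sequence that sets these RNAs apart from other messengers.
Hist1h3a, window: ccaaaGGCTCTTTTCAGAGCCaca

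**Figure D1:**
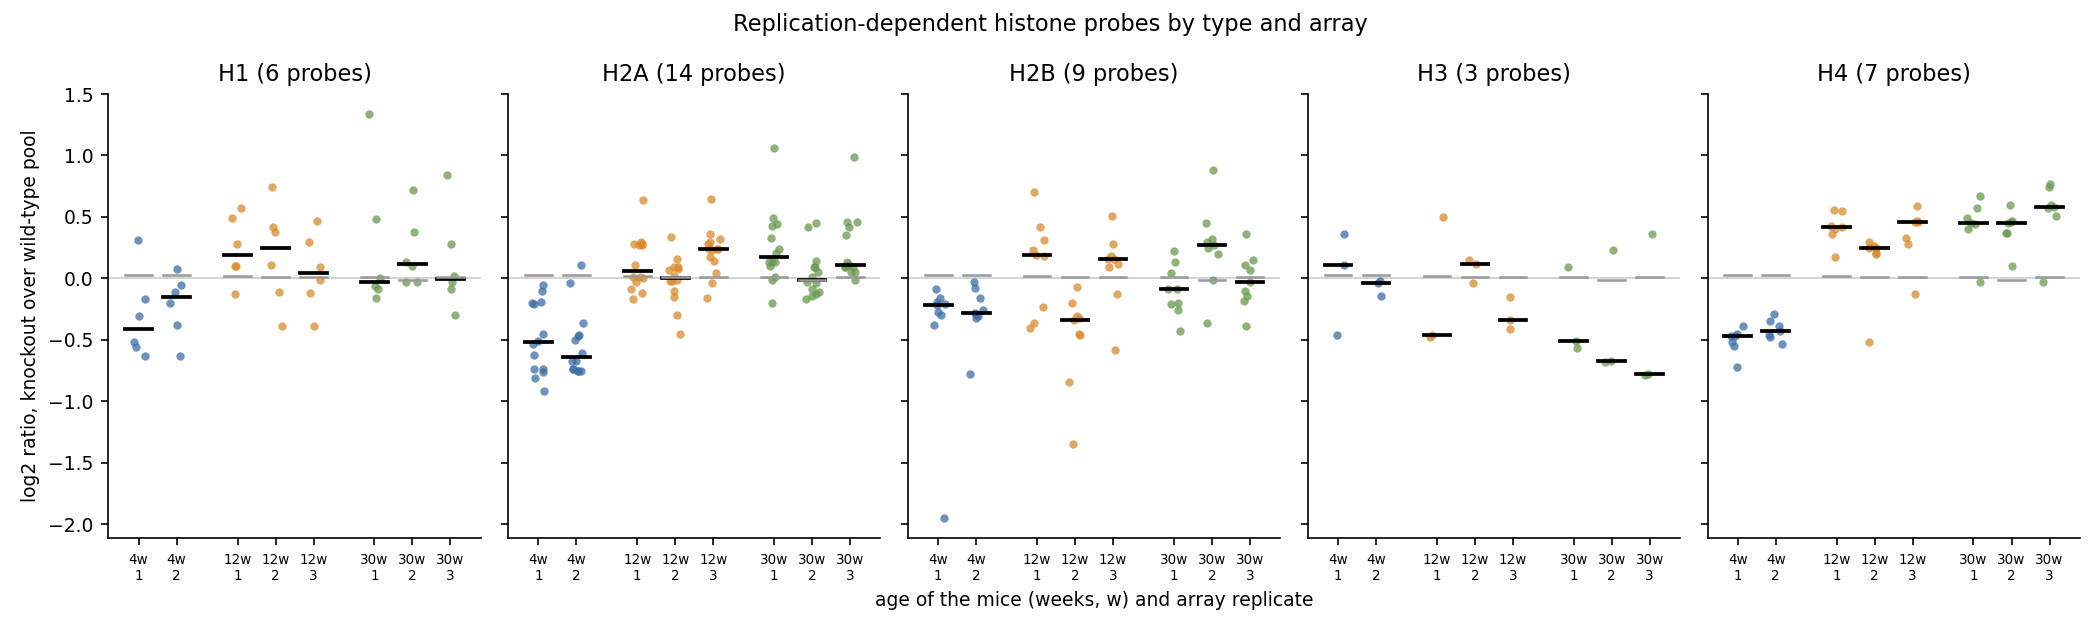
Log2 ratio of knockout over wild-type pool (vertical axis) of each of the 39 histone probes kept, in a panel per histone type, on each array by age in weeks and replicate (horizontal axis). Points are probes, black bars the median of the type on that array and grey bars the median of all 27464 probes kept. After loess the 7 H4 probes lie below 0 on both 4-week arrays and mostly above 0 later, and 2 of the 3 H3 probes lie below 0 on all 30-week arrays. With median centring in place of loess the 4-week H4 values lie above 0, where the median of all probes tested is 0.39.

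At 4 weeks most histone probes were lower in the knockout than in the pool after loess, but not with median centring. Of the 39 kept, 36 had a mean ratio below 0 and 19 were called lower (limma, Benjamini-Hochberg adjusted p under 0.05), against 5.92% of all probes tested that were called lower and 13.3% called higher. None of the 39 was called higher in this limma fit, nor had an unadjusted p under 0.05 in that direction. Their median was -0.42, beside 0.03 over all probes tested. The median of the 39 was -0.45 on replicate 1 and -0.36 on replicate 2, so both arrays lay on the same side. A fit without 1 of them leaves 1 array at this age, and its spread then comes from the later ages only. The histone median was -0.36 without replicate 1 and -0.45 without replicate 2. With each array centred on its median in place of loess the balance turned, to 11 called higher and 1 lower, against 45.3% and 2.45% of all probes. Under that scaling the histone median was 0.40, beside 0.39 over all probes tested, so a value above 0 need not lie above the typical probe.

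At 12 weeks 8 of the 39 were called higher and 1 lower, against 1.51% and 1.84% of all probes. The histone median was 0.10, beside 0.02 for all probes, and it was 0.23, -0.01 and 0.18 on the arrays, replicate 2 being the low one. With median centring 28 were called higher and 0 lower, against 46.8% and 3.9% of all probes. None was called by limma without replicate 1 of 12 weeks, replicate 3 of 12 weeks or replicate 3 of 30 weeks, where 11, 10 and 10 had an unadjusted p under 0.05 in the higher and 4 in the lower direction. Few probes of any kind were called in those fits, at 0.0837%, 0.837% and 0.255% of all probes. There was 1 call without replicate 1 of 30 weeks, and there were 5 without either 4-week array. Without both arrays that stood apart, replicate 2 of 12 and of 30 weeks, 13 were called higher and 1 lower. Of all probes, 10.9% were called in that fit, and 0.248% without replicate 1 of 30 weeks.

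At 30 weeks 13 were called higher and 3 lower, against 19.5% and 20.6% of all probes, so the share called higher was above the background and the share called lower was below it. The median was 0.07, beside 0.01 for all probes, and the probes ran from -0.68 to 0.97. All 8 probes called higher at 12 weeks were among the 13. Of the 19 called lower at 4 weeks, 11 were among them. How many of all probes were called at both ages was not counted, so these overlaps have no background beside them. With median centring 19 were called higher and 0 lower, against 21.7% and 4.38%. In the mean of the 3 ages, where opposite ages offset, 6 probes were called higher and 9 lower, against 24.0% and 19.0% of all probes, and with the dependence on probe GC content removed the balance turned to 11 higher and 5 lower, and with median centring to 30 and 1.

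The difference of 12 minus 4 weeks was called for 15 of the 39, each of them higher at 12 weeks, against 1.03% of all probes called in that direction and 4.57% in the other. The median difference was 0.47 for the histone probes and -0.03 for all probes. All 3 arrays of 12 weeks lay above both arrays of 4 weeks for 23 of the 39, against 14.8% of all probes, and below for 0, against 21.4%. The 30-week arrays lay above both 4-week arrays for 29, against 23.1%, and below for 4, against 33.5%. For 17 both 4-week arrays lay below 0 and all 3 of 30 weeks above it, against 8.01%, and with median centring this was so for 1, against 5.05%. Without replicate 1 of 4 weeks the median histone difference was 0.37, and without replicate 2 it was 0.56. Each of these fits has 1 array at 4 weeks, with the spread taken from the later ages. Between 12 and 30 weeks no histone probe was called by limma, with 3 at an unadjusted p under 0.05 in the higher and 1 in the lower direction, against 0.353% and 0.473% of all probes called higher and lower. Without replicate 1 of 12 weeks there was 1 call each way, where 14.8% of all probes were called. Within slide 2, which holds both ages, the median histone difference was 0.06. Slide 2 has only 1 array of 30 weeks, whose spread is there assumed to be that of the 3 arrays of 12 weeks.

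**Figure D2:**
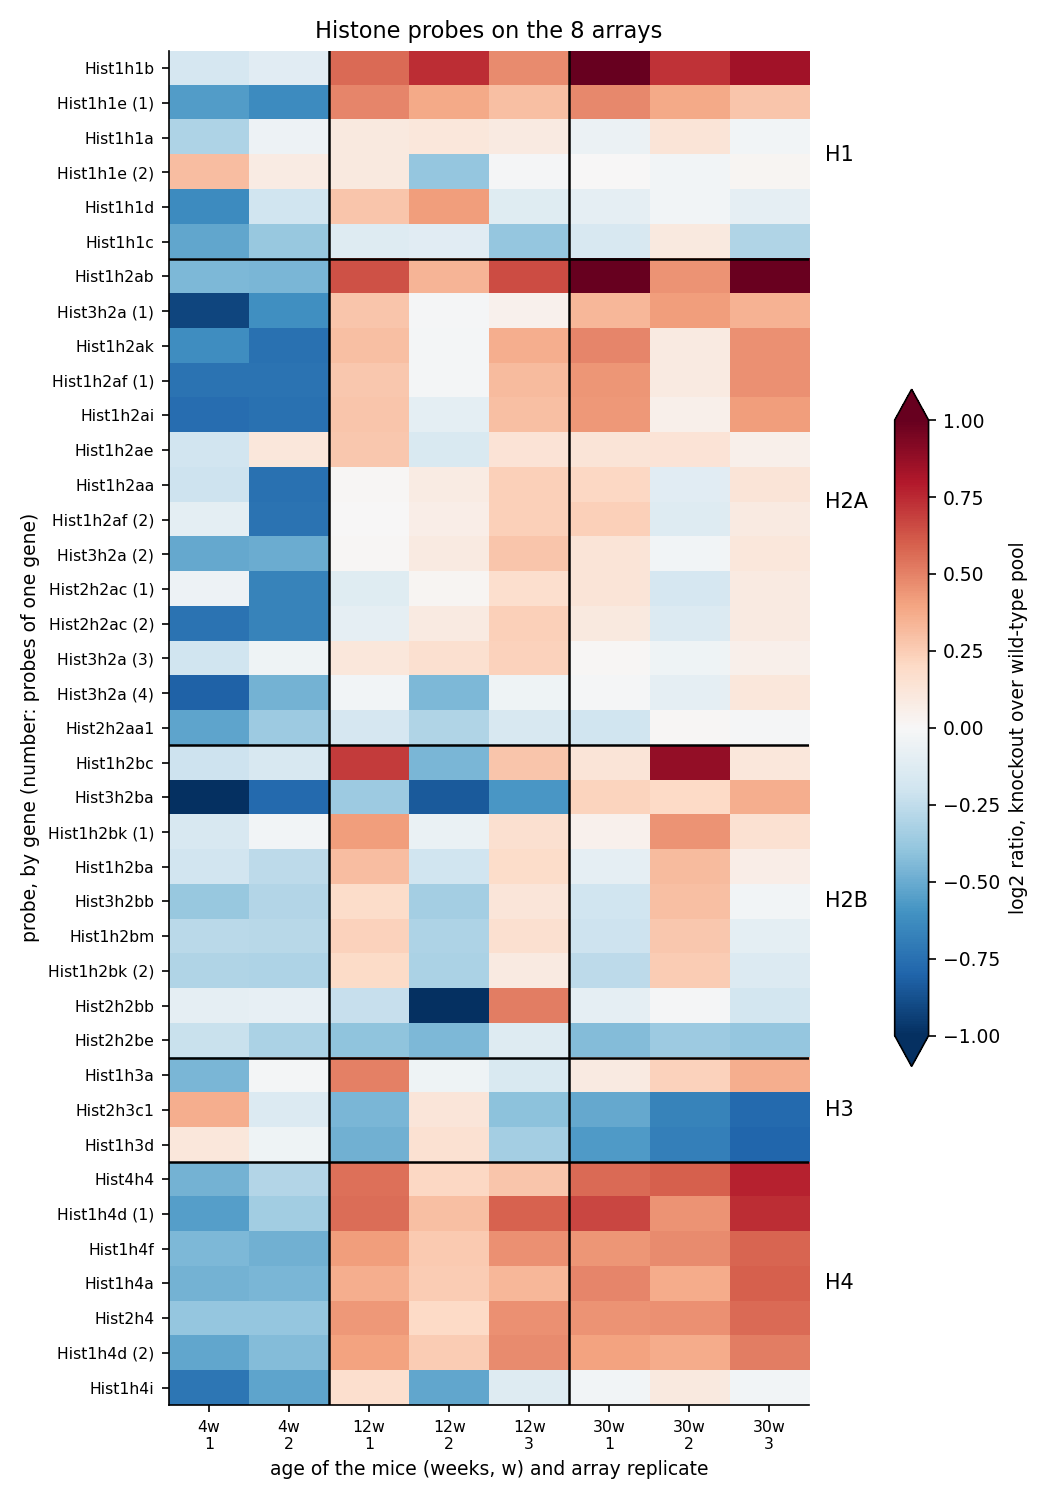
Log2 ratio of knockout over pool (colour, saturated beyond 1 and -1) of the 39 histone probes kept (rows, grouped by histone type and ordered by their 30-week mean) on the 8 arrays (columns, by age in weeks and replicate). Numbers in brackets separate probes of 1 gene. After loess the 4-week columns are mostly blue, with 36 of 39 means below 0. With median centring 7 of 39 are below 0, where the median of all probes tested is 0.39. The H4 block turns from blue to red after 4 weeks, except Hist1h4i.

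H4 pairs with H3 in the nucleosome core. After loess all 7 of its probes were called lower at 4 weeks, where median centring put all 7 above 0. After loess 5 were called higher at 12 weeks and 6 at 30 weeks. Of all probes, 5.92% were called lower at 4 weeks, and 1.51% and 19.5% higher at 12 and 30 weeks. The H4 medians were -0.46, 0.36 and 0.49 at the 3 ages. The difference of 12 minus 4 weeks was called higher for 6 of the 7, against 1.03% of all probes. Hist1h4i, the member of the type that was not called later, had a 30-week mean of 0.01 and is described further on.

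Hist1h4d, on the probe at chr13:23589103-23589162 (plus strand), gave -0.55 and -0.35 at 4 weeks, 0.56, 0.30 and 0.59 at 12 weeks and 0.67, 0.45 and 0.74 at 30 weeks. Both 4-week arrays lay below 0 and all 6 later arrays above it. The limma ratio was -0.45 (SE 0.10, adjusted p 0.0192) at 4 weeks, 0.36 there with median centring, 0.48 (SE 0.09, adjusted p 0.0318) at 12 weeks and 0.62 (SE 0.09, adjusted p 0.00117) at 30 weeks, the last a 1.54-fold rise. Hist4h4, the only gene of its cluster (chr6:136768392-136768451, minus), gave -0.47 and -0.29, then 0.55, 0.21 and 0.28, then 0.57, 0.60 and 0.77. It was called lower at 4 weeks (-0.38, SE 0.10, adjusted p 0.0318, but 0.41 with median centring) and higher at 30 weeks (0.65, SE 0.08, adjusted p 0.00095). Its 12-week mean, 0.34 ± 0.18 (SD, n = 3), was not called.

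Hist1h4a (chr13:23768497-23768556, minus) gave -0.47 and -0.46, then 0.36, 0.25 and 0.33, then 0.49, 0.37 and 0.60, with a 30-week limma ratio of 0.49 (SE 0.06, adjusted p 0.00105). Hist1h4f gave -0.45 and -0.48, then 0.42, 0.26 and 0.46, then 0.44, 0.47 and 0.58, with 0.50 (SE 0.06, adjusted p 0.00101) at 30 weeks. Hist2h4, from another cluster, gave -0.39 and -0.39, then 0.43, 0.20 and 0.46, then 0.45, 0.46 and 0.57, with 0.49 (SE 0.07, adjusted p 0.00121). For each of them the 4-week arrays did not overlap the later ones, and with median centring the 4-week means were 0.42, 0.44 and 0.51. Replicate 2 was the lowest of the 12-week arrays for these 3 genes and for Hist1h4d and Hist4h4. Hist1h4f, Hist2h4 and the other Hist1h4d probe share the letters printed above, so their agreement, within 0.12 on every array, is not independent evidence from 3 genes. The probes of Hist1h4a and of Hist1h4d at chr13:23589103-23589162 share 21 bases in a row, so the same holds for that pair.

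Hist1h4i, whose probe shares no such stretch, was also called lower at 4 weeks, at -0.72 and -0.53 (limma ratio -0.63, SE 0.14, adjusted p 0.0166, but 0.24 with median centring). It then gave 0.17, -0.52 and -0.13 at 12 weeks and -0.03, 0.10 and -0.03 at 30 weeks, where the 6 other H4 probes were called higher. The file lists its position as only 7 bases (chr13:22048045-22048051, minus).

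Linker histone probes, of type H1, differed among themselves. Of the 6, 2 were called lower at 4 weeks after loess, and 2 were called higher at 12 weeks and 2 at 30 weeks. Of all probes, 5.92%, 1.51% and 19.5% were called in those directions. Hist1h1b (chr13:21787519-21787578, minus), which encodes H1.5, had the largest 30-week mean of all 39 histone probes. It gave -0.17 and -0.11 at 4 weeks, 0.57, 0.74 and 0.47 at 12 weeks and 1.34, 0.72 and 0.84 at 30 weeks. All later arrays lay above both 4-week arrays. The limma ratio was 0.60 at 12 weeks (SE 0.11, adjusted p 0.0357) and 0.97 at 30 weeks (SE 0.11, adjusted p 0.000763), a 1.95-fold rise, and its 4-week mean of -0.14 was not called.

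Hist1h1e, which encodes H1.4, had 2 probes that disagreed. The probe at chr13:23629303-23629362 (minus) gave -0.56 and -0.63, then 0.49, 0.38 and 0.30, then 0.48, 0.38 and 0.28. It was called lower at 4 weeks (-0.59, SE 0.08, adjusted p 0.00229, but 0.22 with median centring), higher at 12 (0.39, SE 0.07, adjusted p 0.0296) and 30 weeks (0.38, SE 0.07, adjusted p 0.00289), and in 12 minus 4 weeks (0.98, SE 0.10, adjusted p 0.00583). The probe 2320 bases away on the same listed strand had means of 0.20, -0.10 and -0.01 and was well above background on 6 of 8 arrays in each channel. Hist1h1c (chr13:23747614-23747673, plus), which encodes H1.2, gave -0.52 and -0.38 at 4 weeks and was called lower there (-0.45, SE 0.11, adjusted p 0.0236, but 0.43 with median centring), then gave -0.13, -0.11 and -0.39, and -0.16, 0.10 and -0.30. It was below 0 on 7 of the 8 arrays. Hist1h1a and Hist1h1d were called at no age.

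H2A forms the dimer with H2B that flanks the H3 and H4 core. After loess all 14 of its probes had a 4-week mean below 0, against 3 of 14 with median centring. Of the 14, 9 were called lower at 4 weeks, 1 was called higher at 12 weeks and 5 at 30 weeks. Of all probes, 5.92%, 1.51% and 19.5% were called in those directions. Among the 5 were Hist1h2af, Hist1h2ai and Hist1h2ak, whose printed probes share letters and are not independent evidence. Another was the opposite-strand Hist3h2a probe described below. The H2A medians were -0.49, 0.11 and 0.07. The 12 minus 4 week difference was called higher for 7 of the 14, against 1.03% of all probes.

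Hist1h2ab (chr13:23758988-23759047, plus) gave -0.45 and -0.46, then 0.64, 0.34 and 0.65, then 1.06, 0.45 and 0.99. The ages did not overlap between 4 weeks and later, and replicate 2 was the lowest array at both later ages. Its limma ratio was 0.54 at 12 weeks (SE 0.12, adjusted p 0.0463) and 0.83 at 30 weeks (SE 0.12, adjusted p 0.00123), a 1.78-fold rise, and the 12 minus 4 week difference of 1.00 (SE 0.18, adjusted p 0.021) was the largest among the 39. Its 4-week mean of -0.45 was not called. Hist1h2af, on the probe printed above, gave -0.74 and -0.74, then 0.27, -0.02 and 0.32, then 0.44, 0.09 and 0.46. It was called lower at 4 weeks (-0.74, SE 0.11, adjusted p 0.00363, but 0.17 with median centring) and higher at 30 weeks (0.33, SE 0.09, adjusted p 0.0209). The 30-week call was lost without replicate 1 (0.28) or replicate 3 (0.27) of that age.

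Hist2h2aa1 (chr3:96330984-96331043, plus) gave -0.53 and -0.36 at 4 weeks and was called there (-0.44, SE 0.09, adjusted p 0.00887, but 0.35 with median centring). Later it gave -0.17, -0.30 and -0.16 and then -0.20, 0.01 and -0.01, with 7 of 8 arrays below 0. The second Hist2h2ac probe gave -0.74 and -0.67 at 4 weeks (limma ratio -0.70, SE 0.10, adjusted p 0.00233, but 0.22 with median centring), then -0.09, 0.09 and 0.24, then 0.10, -0.14 and 0.09. Its twin with 51 letters in common gave -0.05 on replicate 1 and -0.67 on replicate 2 of 4 weeks, so the pair differed on replicate 1. A like split on replicate 1 was seen in Hist1h2aa (-0.21) and the other Hist1h2af probe (-0.10), which gave -0.75 and -0.74 on replicate 2.

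Hist3h2a had 4 kept probes. The one at chr11:58770911-58770970 is listed on the minus strand, opposite to the others, and its letters are shown because the capitals, read as their reverse complement, occur in the Hist1h2ai probe.
Hist3h2a: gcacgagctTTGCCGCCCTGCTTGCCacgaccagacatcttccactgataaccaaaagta
In that stretch this probe carries the strand complementary to the Hist1h2ai probe, and whether it reads Hist3h2a messenger RNA was not tested. It gave -0.92 and -0.61, then 0.28, -0.01 and 0.04, then 0.33, 0.42 and 0.35. It was called lower at 4 weeks (-0.76, SE 0.10, adjusted p 0.00203, but -0.08 with median centring), without replicate 1 no longer so (-0.61), and higher at 30 weeks (0.37, SE 0.08, adjusted p 0.00844). The probes of the other listed strand had 30-week means from 0.00 to 0.07 and were called at no later age, while those at chr11:58771080-58771139 and chr11:58771647-58771706 were called lower at 4 weeks, at -0.51 and -0.64, but lay at 0.41 and 0.26 with median centring. At 12 weeks the 4 probes of Hist3h2a differed in sign, from -0.17 to 0.17. The value of 0.17 came from the probe at chr11:58788460-58788519, 17549 bases from the first. That probe was well above background on 4 knockout and 0 pool arrays.

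H2B had medians of -0.27, -0.01 and 0.02, and 1 of 9 probes was called lower at each age, against 5.92%, 1.84% and 20.6% of all probes, with none called higher by limma and none at an unadjusted p under 0.05 in that direction. After loess all 9 probes were below 0 on both 4-week arrays, with medians of -0.22 and -0.28, while with median centring 1 of the 9 had a 4-week mean below 0. All 9 were also below 0 on replicate 2 of 12 weeks, with a median of -0.34, against 3 and 2 on replicates 1 and 3. On replicate 2 of 30 weeks 2 were below 0, with a median of 0.27, against 6 and 5 on replicates 1 and 3. Replicate 2 of 12 weeks is the array that stood apart at Xist and replicate 2 of 30 weeks the one at the acinar markers, and their part in the H2B values was not tested.

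Hist2h2be (chr3:96308863-96308922, plus) was below 0 on 8 of 8 arrays, the only kept histone probe of which that was so. It gave -0.22 and -0.32, then -0.40, -0.45 and -0.13, then -0.43, -0.36 and -0.39. It was called lower at 30 weeks (-0.39, SE 0.07, adjusted p 0.00357), but with median centring it was at -0.20 and not called. It was also called lower in the mean of the 3 ages (-0.33, SE 0.05, adjusted p 0.000891, but 0.12 with median centring). The 12-week call (-0.32, SE 0.07, adjusted p 0.0499, but 0.17 with median centring) did not survive any of the 8 fits with 1 array dropped. Hist3h2ba (chr11:58765641-58765700, plus) had the largest 4-week fall of the 39, at -1.95 and -0.78, and then gave -0.36, -0.84 and -0.58, and 0.22, 0.20 and 0.36. All 5 arrays of 4 and 12 weeks lay below all 3 of 30 weeks. It was called at 4 weeks (-1.37, SE 0.23, adjusted p 0.00492, a 2.58-fold fall, but -0.46 with median centring), and without replicate 1 that value was -0.78 and not called. Hist1h2bk had 2 kept probes, 66 bases apart, that differed in sign at 12 weeks (-0.01 and 0.17) and at 30 weeks (-0.05 and 0.21). Hist1h2bc ranged from -0.46 on replicate 2 to 0.70 on replicate 1 at 12 weeks, and Hist2h2bb from -1.35 on replicate 2 to 0.51 on replicate 3, so neither had a 12-week mean larger than its spread.

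H3 had 3 probes, of which 2 were called lower at 30 weeks and none at 4 or 12 weeks by limma, nor at an unadjusted p under 0.05. Of all probes, 20.6% were called lower at 30 weeks. Hist1h3d (chr13:23583575-23583634, plus) gave 0.11 and -0.04, then -0.48, 0.15 and -0.34, then -0.57, -0.68 and -0.79. Hist2h3c1 (chr3:96332639-96332698, plus) gave 0.36 and -0.14, then -0.46, 0.12 and -0.41, then -0.51, -0.67 and -0.78. For both genes the 3 arrays of 30 weeks lay below the other 5. Both were called lower there, at -0.68 (SE 0.11, adjusted p 0.00225) and -0.66 (SE 0.13, adjusted p 0.00471). With median centring they were at -0.17 and -0.10 and not called, and with the GC trend removed at -0.51 and -0.29. After loess both calls stood whichever of the 8 arrays was dropped. Their probes overlap by 17 bases and lay within 0.25 of each other on every array. Hist1h3a, the probe that carries the stem-loop, gave -0.46 and -0.02, then 0.50, -0.04 and -0.15, then 0.09, 0.23 and 0.36, and was called at no age.

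**Figure D3:**
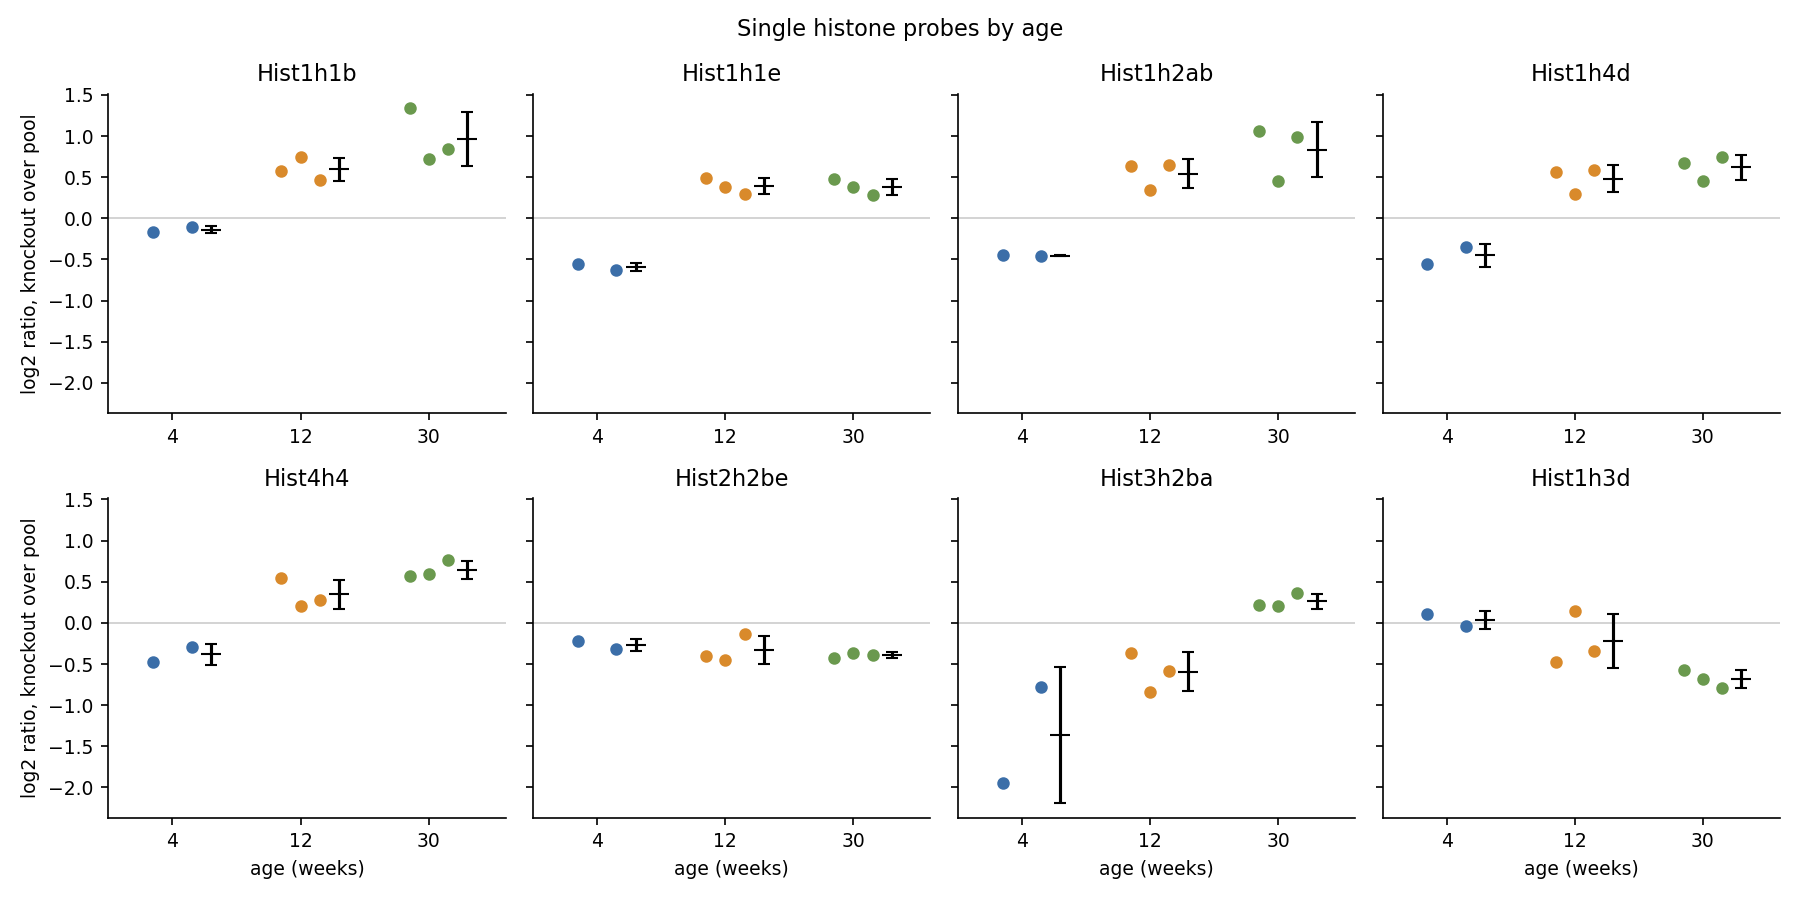
Log2 ratio of knockout over pool (vertical axis) of 8 histone probes by age in weeks (horizontal axis). Points are arrays, and the horizontal tick with bars is the mean ± SD of the 2 or 3 arrays of that age. After loess, Hist1h1e, Hist1h2ab, Hist1h4d and Hist4h4 pass from below 0 at 4 weeks to above 0, Hist2h2be stays below 0 and Hist1h3d falls to a mean of -0.68 at 30 weeks. With median centring the 4-week means of Hist1h1e, Hist1h4d and Hist4h4 are 0.22, 0.36 and 0.41, where the median of all probes tested is 0.39.

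The probes that share letters gave nearly the same ratio on each array. The H4 set of 3 stayed within 0.12, the H2A set that begins with Hist1h2ak within 0.14 and the H2B set within 0.12. The 4 probes at the end of H2A, which are the Hist2h2ac pair, Hist1h2aa and the other Hist1h2af probe, stayed within 0.15 on 7 arrays but spread over 0.68 on replicate 1 of 4 weeks.

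**Figure D4:**
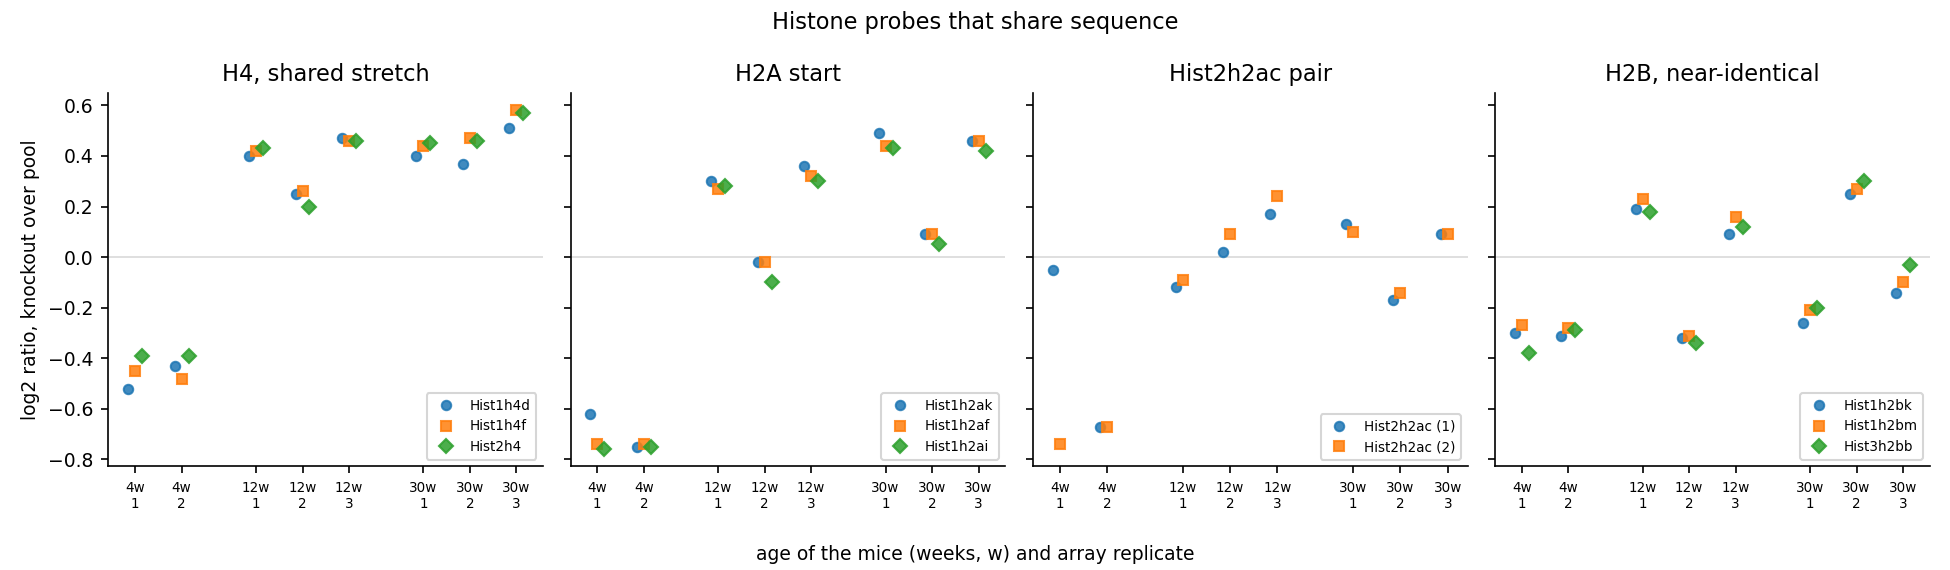
Log2 ratio of knockout over pool (vertical axis) of histone probes that share sequence, on each array by age in weeks and replicate (horizontal axis), in a panel per set. Marks of the same array lie within 0.14 of each other in the H4, H2A start and H2B sets, and the Hist2h2ac pair parts on replicate 1 of 4 weeks, at -0.05 and -0.74. With median centring in place of loess the 4-week values of Hist1h4f, Hist2h4, Hist1h2af and the second Hist2h2ac probe lie above 0. The median of all probes tested is then 0.39.

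The sign at 4 weeks depended on how the arrays were scaled. With each array centred on its median and no loess, the median of all probes tested moved to 0.39 at 4 weeks, 0.34 at 12 weeks and 0.11 at 30 weeks. Relative to the shift of all probes, the histone median was 0.01 at 4 weeks, 0.30 at 12 weeks and 0.36 at 30 weeks under this scaling. Histone probes are bright, and 20 of the 39 were among the brightest 25% of probes, whose own median moved to 0.92 at 4 weeks. Relative to those bright probes, H4 was at -0.50 at 4 weeks, 0.37 at 12 weeks and 0.50 at 30 weeks under median centring, and at -0.50, 0.37 and 0.50 under loess. H2A was at -0.69, 0.20 and 0.23 under median centring and at -0.53, 0.12 and 0.08 under loess. H4 and H2A were thus below the bright probes at 4 weeks and above them later under both scalings, while the 4-week sign against 0 differed. The other types and the members as a whole did not keep this order. All 39 were at 0.11 at 12 weeks under loess but at -0.03 under median centring, H1 was at 0.16 and -0.27 there, and H2B at 30 weeks was at 0.03 and -0.04. Against all probes under median centring, H4 was at 0.03 and H2A at -0.17 at 4 weeks. With median centring no 12 minus 4 week difference of a histone probe was called by limma, against 0.295% of all probes. At an unadjusted p under 0.05 there were 15, all higher, and the median was 0.33.

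Histone probes are also rich in G and C, with a median GC content from 47.5% for H1 to 60.0% for both H2A and H4, against 41.67% among all kept probes. The straight-line slope of the ratios on GC content was downward on every array, by 0.05 to 0.18 per 10 points. With that trend removed, 9 histone probes were called lower at 4 weeks, at a median of -0.18, against 5.0% of all probes called lower and 12.0% higher. At 12 weeks 8 were called higher, against 1.14% higher and 1.41% lower. At 30 weeks 17 were called higher and 2 lower, against 19.2% and 19.9% of all probes, at a median of 0.26. H4 then stood at -0.15, 0.57 and 0.83 at the 3 ages, and H3 at 0.20, -0.03 and -0.29. The 4-week medians of H4 and of all 39 probes were closer to 0, and their 30-week medians higher, than after loess alone. The straight line did not describe the probes richest in GC. After its removal the 138 kept probes of 65% GC or more had medians of 0.25, 0.26 and 0.55 at the 3 ages. The 8 histone probes among them had -0.14, 0.44 and 0.71. Part of the high GC-removed values at 12 and 30 weeks is therefore shared by other GC-rich probes.

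**Figure D5:**
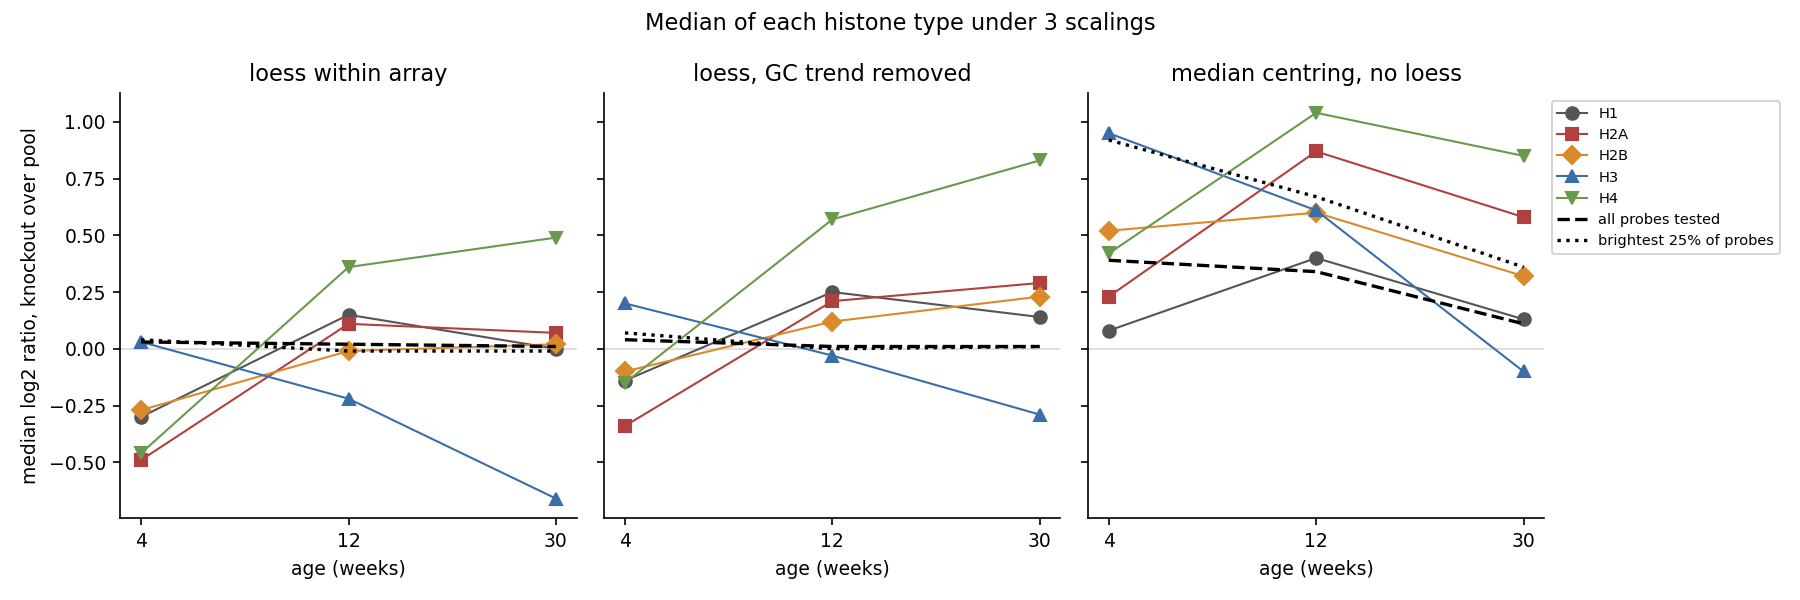
Median log2 ratio of knockout over pool (vertical axis) of the kept probes of each histone type by age in weeks (horizontal axis), after loess, after loess with the GC trend removed, and after median centring without loess. Dashed lines are the median of all 27464 probes tested and dotted lines that of the brightest 25%. H4 is at -0.46, 0.36 and 0.49 after loess and at 0.42, 1.04 and 0.85 after median centring, where the dotted line is at 0.92, 0.67 and 0.36.

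The 8 probes left out as dim were those of Hist1h1t, Hist1h2ac, Hist1h2be and Hist1h2bp, both Hist2h2aa2 probes and the second probes of Hist1h1d and Hist4h4. They were well above background on at most 2 of 8 arrays in either channel, and nothing was read from their ratios. Hist1h1t encodes a testis linker histone.

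Promoters of 31 of the 36 genes were found in the RefSeq-derived table (GRCm38.p6), 32 in all since Hist1h2be has 2. In the 250 bases before the start, on both strands, CCAAT stood in 28 of 32 (33.8% of all promoters), TATAAA in 17 (12.4%), the octamer ATTTGCAT in 11 (1.6%) and AAACACAAA, a motif named after H1, in 3 (0.642%). The octamer matches were in 6 of 11 H2A and 5 of 8 H2B promoters. In the 120-base windows no match of one motif overlapped that of another. The last 120 bases before the start are shown for 3 members that were higher at 30 weeks, with matches in capitals (CCAAT or its complement, TATAAA and AAACACAAA): Hist1h1b at chr13:21780626-21780745 (minus), Hist1h2ab at chr13:23750968-23751087 (plus) and Hist1h4d at chr13:23581448-23581567 (plus).
Hist1h1b: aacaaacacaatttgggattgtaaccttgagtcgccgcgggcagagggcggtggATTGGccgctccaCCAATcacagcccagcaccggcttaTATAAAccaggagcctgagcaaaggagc
Hist1h2ab: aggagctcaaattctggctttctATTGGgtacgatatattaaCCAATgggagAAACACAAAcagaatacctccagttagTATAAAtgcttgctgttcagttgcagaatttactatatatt
Hist1h4d: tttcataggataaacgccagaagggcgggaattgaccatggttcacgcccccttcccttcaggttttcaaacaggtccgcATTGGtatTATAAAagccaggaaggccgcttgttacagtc
All 3 windows hold a CCAAT match and a TATA match, and only that of Hist1h2ab holds the full AAACACAAA. Only this full string was searched. The Hist1h1b window holds the shorter AAACACA, which was not counted, so the counts of this motif depend on the string chosen.

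Other genes of histone supply were read from 5 lists, 1 probe per gene. Their counts stand beside 13.3% of all probes called higher and 5.92% lower at 4 weeks, 1.51% and 1.84% at 12 weeks, and 19.5% and 20.6% at 30 weeks. Among replication-independent histones, which are made outside S phase, 1 of 11 was called higher and 2 lower at 4 weeks, 0 either way by limma at 12 weeks (2 higher and 1 lower at an unadjusted p under 0.05), and 2 each way at 30 weeks, with medians of -0.17, -0.01 and 0.11. H3f3a, which encodes the replacement histone H3.3, was higher at 4 weeks (1.08, SE 0.11, adjusted p 0.000768), opposite to the H4 and H2A probes there, and higher under median centring relative to all probes (1.62) and with the GC trend removed (0.98). Among 13 genes of histone mRNA processing and cluster transcription, 5 were called higher and 2 lower at 4 weeks, and 5 and 4 at 30 weeks. Npat was higher at 30 weeks (0.50, SE 0.06, adjusted p 0.001), as was Cstf2, a cleavage factor (0.63, SE 0.07, adjusted p 0.000807), while Ars2, a cap-binding partner, was lower (-0.79, SE 0.09, adjusted p 0.000774). Slbp, picked after its values were seen, was higher at 4 weeks (0.57, SE 0.12, adjusted p 0.0127) and at 30 weeks (0.30, SE 0.10, adjusted p 0.035).

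Of 13 histone chaperones, which carry histones to DNA, 5 were called higher and 1 lower at 4 weeks and 1 higher and 7 lower at 30 weeks, where 19.5% and 20.6% of all probes were called, with a 30-week median of -0.23 after loess, -0.16 relative to all probes under median centring and -0.29 with the GC trend removed. Chaf1a, the large subunit of the replication-coupled chaperone CAF-1, was lower at 30 weeks (-0.57, SE 0.07, adjusted p 0.000799) and in 30 minus 12 weeks (-0.66, SE 0.10, adjusted p 0.0345). Rbbp7 (0.66, SE 0.07, adjusted p 0.00102) and Asf1a (0.57, SE 0.08, adjusted p 0.00226) were higher at 4 weeks.

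Of 26 genes of DNA replication, 5 were called higher and 2 lower at 4 weeks, 1 higher at 12 weeks, and 4 higher and 6 lower at 30 weeks, with medians of -0.01, 0.18 and 0.05. At 4 and 30 weeks these counts were close to the shares of all probes called. Mcm4, of the replicative helicase, was higher at 4 weeks (0.92, SE 0.10, adjusted p 0.00102), and Mcm2 of the same helicase was higher at 12 weeks (0.38, SE 0.08, adjusted p 0.0463). Of 19 genes of G2 and mitosis, 5 were called higher at 4 weeks, 1 at 12 weeks, where the median was 0.36, and 3 higher and 1 lower at 30 weeks. Kif11, a spindle motor, was the 12-week call (0.37, SE 0.08, adjusted p 0.0454). At 12 weeks 15 of the 19 and 12 of the 26 replication genes had an unadjusted limma p under 0.05, all higher. Among the 39 histone probes 10 were higher and 4 lower at that level. The share of all probes at that level was not counted. The 12 minus 4 week difference was called higher for 3 of 26 replication genes and 1 of 19 mitotic genes. It was called higher for 15 of 39 histone probes and 1.03% of all probes.

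Markers of cell types that the tissue could hold moved as follows, and their part in the histone results was not tested. Their counts stand beside the same shares of all probes as those of the 5 lists above. Of 6 germinal centre B-cell markers, 2 were called higher at 4 weeks, at a median of 0.61, where the histone probes were low, and 2 at 30 weeks, at a median of -0.02. B-cell markers had medians of 0.30, -0.11 and -0.32 at the 3 ages, with 3 of 9 called higher at 4 weeks, and 1 higher and 4 lower at 30 weeks. Of 8 T-cell markers, 1 was called lower at 4 weeks, 1 each way at 12 weeks and 3 lower at 30 weeks. Erythroid markers had a median of -0.71 at 4 weeks, with 2 of 5 called lower. Plasma cell markers had medians of -0.07, 0.14 and -0.02 and macrophage markers of 0.10, -0.14 and -0.31. Fat cell markers had medians of -1.05 at 4 weeks and -0.90 at 12 weeks, with 2 of 10 called lower and 1 higher at 4 weeks, and none by limma at 12 weeks, where 8 were lower at an unadjusted p under 0.05. No acinar marker was called by limma at any age, nor had an unadjusted p under 0.05, and the medians of the 12 ran from -2.28 to 0.73 on the arrays of 4 and 12 weeks. In whole tissue, fewer cells of a type and less RNA per cell cannot be told apart.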

How the data were processed

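The authors' deposited scanner files give, per spot, its mean intensity, the median intensity of the background around it, processed signals (intensity), a log10 ratio of red over green processed signal and quality flags, from Agilent Feature Extraction, per the file headers. The deposited value table holds, made by the authors and found by comparison with the scanner values, the log2 ratio of red over green processed signal, uncentred, with medians per array from -0.21 to 0.15. Red is the knockout, per the labels.

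With limma 3.58.1 in R 4.3.3, signals were corrected with normexp (offset 50) and loess-normalised within arrays. Outlier spots were dropped and the remaining spots of each probe averaged. To be kept, a probe had to be flagged well above background on every array of some age, in 1 and the same dye. A model of 1 mean per age over the 8 arrays, with 5 residual degrees of freedom and 3.71 from the prior, tested 6 contrasts against 0, two-sided, adjusted over all 27464 probes, of which 36 values by probe and array were missing, none of them of a histone probe. Whether each array is 1 knockout mouse, and whether mice share a litter, is not stated, and p-values measure only the spread between these arrays. Their number limits the precision. On simulated shifts of 0.5 log2 units the fit recovered 24% at 4 weeks, 52% at 12 and 48% at 30 weeks, and on shifts of 1 unit 86%, 90% and 90%. The simulation shifted few probes over independent noise, while 11015 probes were called in the data at 30 weeks. The adjustment was therefore stricter in the simulation, and its recovery does not give that of the data.

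Values on every array are given for members called in at least 1 contrast, at most 5 per type by smallest adjusted p, for genes whose probes differ in sign, and, from the lists, for at most 4 genes per contrast. Members beyond this rule are given to account for all. Members and lists were chosen with earlier results of these data known. Gene names are those of the array, with 36 probes matched to RefSeq by accession and 11 by synonym. Coordinates of probes are those of the 4-week files (mm8). Alternatives changed the source of the ratio, background, scaling, filter, probe choice, GC trend, slide or replicate block, and arrays.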

Additional observations from a re-analysis of the deposited data

Results flagged for a closer look

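The difference of 12 minus 4 weeks passed limma's test for 15 histone probes. It was 1.00 for Hist1h2ab, 0.98 for Hist1h1e, 0.93 for Hist1h4d (probe A_51_P482070), 0.93 for Hist1h2af, 0.92 for Hist1h2ai and 0.90 for Hist1h2ak. For the probes named Hist3h2a it was 0.86 on the opposite-strand probe A_51_P441377 and 0.63 on A_52_P184352. It was 0.84 for the other Hist1h4d probe, 0.84 for Hist1h4f, 0.78 for Hist2h2ac and 0.77 for Hist1h4a. It was 0.76 for Hist2h4, 0.74 for Hist1h1b and 0.72 for Hist4h4. With median centring limma called none of these differences, against 0.295% of all probes, with 15 histone probes at an unadjusted p under 0.05. Age cannot be told apart from slide and scanner.

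For 17 probes both 4-week arrays lay below 0 and all 3 arrays of 30 weeks above it, which was not tested as a difference. It was so for 8.01% of all probes, and with median centring for 1 of the 39 histone probes and 5.05% of all probes. The 30-week mean minus the 4-week mean was 1.62 for Hist3h2ba, 1.29 for Hist1h2ab and 1.13 for the opposite-strand Hist3h2a probe. It was 1.10 for Hist1h1b, 1.08 for Hist1h2af, 1.07 and 0.89 for the Hist1h4d probes, 1.06 for Hist1h2ai and 1.03 for both Hist1h2ak and Hist4h4. It was 0.97 for Hist1h1e, 0.96 for Hist1h4f, 0.95 for Hist1h4a, 0.89 for Hist2h4, 0.56 for Hist1h2bc, 0.47 for Hist1h3a and 0.30 for Hist1h2bk.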

How the results depend on the processing

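The 30-week count of 16 called histone probes of 39 stayed between 13 and 20 under every setting tried. In the main fit 40.1% of all probes were called at that age, and 22.6% to 52.9% over the settings. The named calls are those of the probes with the smallest adjusted p of each type, so they do not speak for the other calls. At 30 weeks 12 of the 13 named calls held in all 8 fits that left out 1 array. Of the named calls, 1 of 12 at 4 weeks, 0 of 8 at 12 weeks, 6 of 13 in the mean of the 3 ages and 0 of 11 in 12 minus 4 weeks did so. With median centring 10 of the 13 named 30-week calls held, and 0 histone probes were called lower at that age. Left out 1 array at a time, the counts ran from 1 to 21 at 4 weeks, 0 to 10 at 12 weeks, 13 to 16 at 30 weeks, 9 to 17 in the mean of the 3 ages, 0 to 16 in 12 minus 4 weeks and 0 to 2 in 30 minus 12 weeks. In the fits without a 12- or 30-week array, the shares of all probes called ran, in the same order, from 14.6% to 24.6%, 0.0837% to 11.0%, 22.6% to 43.9%, 34.1% to 46.3%, 2.36% to 8.66% and 0.0109% to 14.8%. Median centring without loess turned the balance at 4 weeks (12 called, 11 of them higher) and in the mean of the 3 ages (31 called, 30 higher), and gave 28 at 12 weeks and 0 in 12 minus 4 weeks. Of all probes, 47.8%, 61.8%, 50.7% and 0.295% were then called, and 45.3% were called higher at 4 weeks. At 4 weeks median centring moved Hist1h1e to 0.22, Hist1h1c to 0.43, Hist2h2ac to 0.22, Hist2h2aa1 to 0.35, Hist1h2af to 0.17, Hist4h4 to 0.41, Hist1h4f to 0.44, Hist1h4a to 0.42, Hist1h4d to 0.36 and Hist2h4 to 0.51. It moved Hist2h2be at 12 weeks to 0.17, and in the mean of the 3 ages Hist1h1c to 0.34, Hist2h2ac to 0.60, Hist2h2aa1 to 0.23, Hist2h2be to 0.12, Hist1h3d to 0.46 and Hist2h3c1 to 0.52. Under this scaling the median of all probes tested was itself 0.39 at 4 weeks, 0.34 at 12 weeks and 0.27 in the mean. A value above 0 there need not lie above the typical probe. With the GC trend removed there were 9 calls at 4 weeks, 9 in 12 minus 4 weeks and 16 in the mean (11 higher), against 17.0%, 6.1% and 40.2% of all probes. In that mean Hist2h2ac was at 0.01, Hist2h2aa1 at 0.03 and Hist2h3c1 at 0.04. At 12 weeks the scanner's log ratio and the deposited value table gave 0 limma calls each (10 higher and 3 lower at an unadjusted p under 0.05), a normexp offset of 10 gave 3, and the 12-week arrays alone gave 0 (9 and 3). Of all probes, 0.845%, 0.83%, 2.01% and 0.0255% were called in those fits. The 4- and 12-week arrays alone gave 7 calls in 12 minus 4 weeks, against 0.816% of all probes. Slide as a random block, at a correlation of -0.26, gave 23 calls at 12 weeks, 24 in 12 minus 4 weeks and 2 in 30 minus 12 weeks. The calls rose over the whole array in that fit, to 49.5%, 22.5% and 12.6% of all probes, from 3.35%, 5.6% and 0.827% in the main fit. Leaving out replicate 2 of 12 and of 30 weeks together, chosen after seeing the data, gave 14 at 12 weeks and 22 in 12 minus 4 weeks. Of all probes, 10.9% and 8.7% were called there. Why these settings changed the counts was not tested.

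Same-numbered arrays deviated together at correlations from -0.0794 to 0.231, so the numbers do not pair the samples. With the replicate block there were 15, 5 and 16 calls at the 3 ages, 15 in the mean, 11 in 12 minus 4 weeks and 0 in 30 minus 12 weeks (1 each way at an unadjusted p under 0.05). Of all probes, 12.5%, 2.13%, 37.1%, 37.0%, 1.7% and 0.0291% were then called. With the replicate block and the GC trend removed there were 5 at 4 weeks, 4 in 12 minus 4 weeks and 15 in the mean (11 higher), against 9.94%, 1.66% and 33.1% of all probes. In that mean Hist2h2ac was at 0.03, Hist2h2aa1 at 0.04 and Hist2h3c1 at 0.02. Signal over background limits 8 of the 47 probes.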
